A study of Rattus norvegicus with 8 samples.

Results

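The voltage-gated sodium, calcium and potassium channels, the other potassium channels and the Clcn chloride channels and transporters were examined in rat PC12 cells with and without induction of a mutant huntingtin fragment. Members were all genes whose single symbol in the annotation of the array begins with Scn and a digit, Cacna, Cacnb, Cacng, Kcn or Clcn. These were 83 genes of 4736 with a single-symbol probe set, read by 131 of 8799 probe sets. Each gene was read from whichever of its probe sets averaged highest over the 8 arrays, and induction played no part in the choice.

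PC12 cells derive from a rat pheochromocytoma, make catecholamines and can become neuron-like. All 8 samples came from one PC12 line, Htt14A2.5, which per the labels carries, stably and under an inducible control, exon 1 of human huntingtin in a truncated mutant form. By their titles, 4 samples were induced with ponasterone (PA), a steroid, and 4 were uninduced, and the description gives 48 h of treatment. The free text of the uninduced samples also mentions induction, so the titles alone set the groups. Both groups carry the transgene, and no group of cells without it received ponasterone, so the fragment and the steroid cannot be told apart. No source states that replicates were grown separately, and p-values therefore measure the spread between these samples, which may be technical. In bulk samples, fewer cells expressing a gene and less RNA per cell cannot be told apart.

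Voltage-gated channels open when the membrane depolarizes. Sodium channels carry the upstroke of the action potential, calcium channels admit the calcium that triggers secretion, and potassium channels bring the membrane back to rest. In each family a pore subunit forms the channel and auxiliary subunits set how many channels reach the surface and how fast they open and close. Adrenal chromaffin cells, from which PC12 derives, fire action potentials and release catecholamines when calcium enters.

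Of the 83 genes, 3 differed between the groups. The two-pore potassium channel Kcnk3 and the voltage-gated potassium channel Kcnc4 were higher in induced cells, and the calcium channel auxiliary subunit Cacna2d1 was lower. The test was limma across all probe sets on log2(signal + 7), with a Benjamini-Hochberg adjusted p under 0.05. Only 51 of the 83 genes passed the filter on low signal (a mean of 36.3 over the 8 arrays) and were tested, and the other 32 were not. Among those tested, 2 rose, 1 fell and 48 were not called, a share of 5.88%. Of all 3620 genes tested, with 1 probe set each, 7.21% were called, 4.31% higher and 2.9% lower, so the channel genes were called at about the background share. Over all 6118 probe sets the shares were 7.08%, 4.1% and 2.97%. The median log2 difference of the tested channel genes was -0.03, and that of all tested genes was -0.05. At an unadjusted p under 0.05 there were 6 channel genes (11.8%), against 18.8% of all genes tested. The 3 calls were made with 4 arrays a group, and none held when both arrays of replicate 2, the ones with another wording in the source label, were left out (values beside each gene).

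Signals were read against 38 control probe sets of the array that serve as background. The background limit of an array was the 95th percentile of these controls, and it lay between 102 and 183. Of the 83 channel genes, 14 (16.9%) were above the limit on all 8 arrays, 21 on 1 to 7 arrays and 48 (57.8%) on 0 arrays. Of the 4736 genes of the array, 45.2% were above it on all 8 and 35.5% on none. The table holds no detection calls, so a signal under the limit does not show that a transcript was absent, and signals of different probe sets are not ranked here. By the highest background control in place of the 95th percentile, 9 channel genes were above on all 8 arrays.

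**Figure D1:**
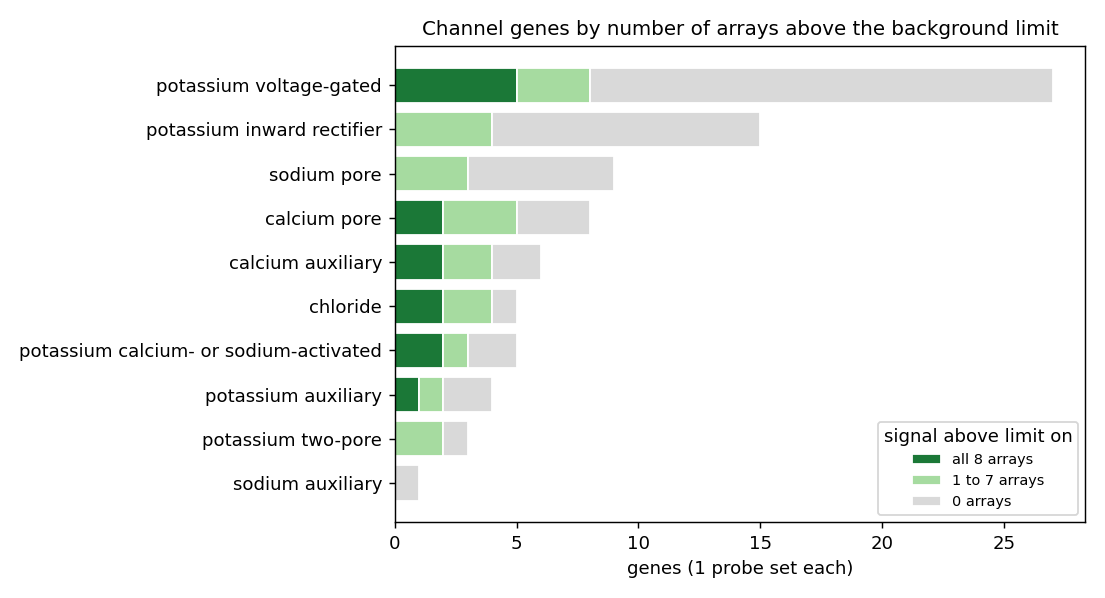
Number of channel genes (horizontal axis, 1 probe set each) in each role (vertical axis), coloured by whether the signal lay above the background limit of the array on all 8, on 1 to 7 or on 0 arrays. Voltage-gated potassium channels had 5 of 27 genes above the limit on all 8 arrays, and inward rectifiers, two-pore potassium channels and sodium channels had 0.

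The cell type was checked against markers of chromaffin and sympathetic cells. Of 14 on the array, 8 were above the limit on all 8 arrays, among them Chgb, Phox2a, Prph, Nefm and Snap25, while the catecholamine enzymes Dbh and Ddc were above it on 0 arrays and Th on 1. Of the 11 tested, Gap43 rose and Phox2a and Syp fell, a share of 27.3% against 7.21% of all tested genes. The summed signal of the 14 ranged from 45416 to 53045 in uninduced and from 46427 to 48671 in induced samples. Of 31 markers of adrenal cortex, fibroblasts, Schwann cells or glia, leukocytes, endothelium and muscle, 18 were tested and 1 was called (5.56%), Pmp22, which rose. Above the limit on all 8 arrays were 5 of the 31 (Col1a1, Col3a1, Cd4, Myh1 and Pmp22), and 20 were above it on 0 arrays. The part of these markers in the results was not tested. For the Gapdh controls, 3' over 5' signal gave log2 ratios of 0.20 to 0.50 in uninduced and 0.39 to 0.56 in induced samples. The hexokinase controls gave 0.87 to 1.37 in uninduced and 0.50 to 1.14 in induced samples. The beta-actin controls gave 0.08 to 0.57 in uninduced samples. In induced replicates 1 to 4 they gave 0.22, 0.36, -0.67 and 0.57, so the 3 controls did not move alike.

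The level of the channel genes moved with the array as a whole. The median signal of the 83 genes was 59.5, 49.0, 46.7 and 73.2 on uninduced arrays 1 to 4 and 36.8, 46.6, 67.5 and 78.6 on induced arrays 1 to 4. The groups overlap, and the induced group holds both the lowest and the highest array. Of the 83 genes, 26 had their highest signal on induced replicate 4 and 17 on uninduced replicate 4, while 22 had their lowest on induced replicate 1 and 20 on induced replicate 2. These are the arrays with the highest and the lowest medians over all non-control probe sets (135.5 and 127.7, against 97.9 and 105.0).

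**Figure D2:**
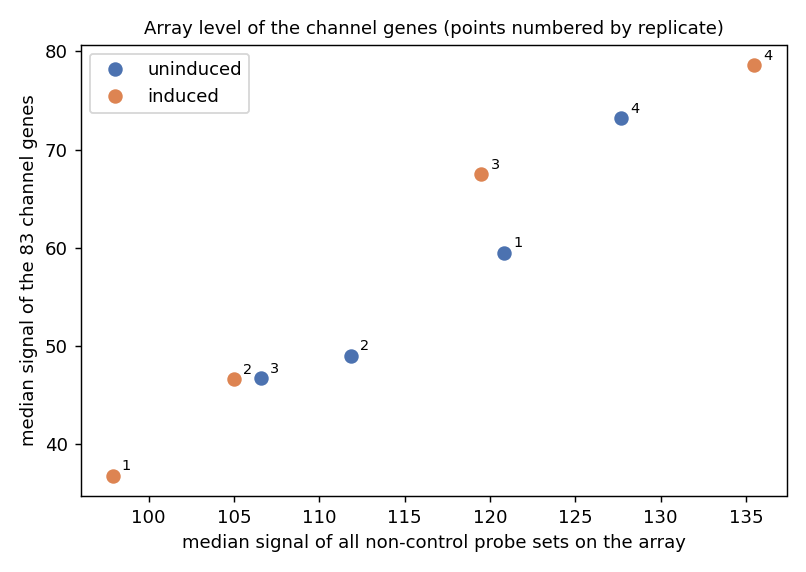
Median signal of the 83 channel genes (vertical axis) against the median signal of all non-control probe sets (horizontal axis) for each array, coloured by group and numbered by replicate. Induced arrays sit at both ends, from 36.8 to 78.6, with the uninduced arrays (46.7 to 73.2) between them.

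Calcium channel auxiliary subunits held the one channel gene that fell. Cacna2d1 encodes the extracellular alpha2-delta subunit, which raises the number of calcium channels at the surface and binds gabapentin. Its signals were 1389, 1712, 1611 and 1537 in uninduced replicates 1 to 4 and 1275, 983, 1029 and 820 in induced replicates 1 to 4. Every induced sample lay below every uninduced one, with the nearest pair both replicate 1, and all 8 signals were far above the background limit. The mean fell from 1562 ± 136 to 1027 ± 188 (SD, n = 4 each), a log2 difference of -0.62 ± 0.13 (SE; limma adjusted p = 0.0136; 95% interval -0.90 to -0.33). Groups without overlap and lower after induction were found in 7.27% of all tested genes. The difference was -0.80 between the 2 arrays of replicate 2 and -0.56 over the other 6 arrays (adjusted p = 0.124), with an adjusted p of 0.0229 when the wording of the source label was a block. The call was also lost without uninduced replicate 2 alone (adjusted p = 0.0515), without an intensity trend (0.0661) and with median centring of the arrays (log2 difference -0.58, adjusted p = 0.192).

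The other auxiliary subunits of calcium channels did not pass. Cacnb3, a cytosolic beta subunit that binds the pore and carries it to the membrane, read 696, 547, 711 and 706 uninduced and 478, 590, 694 and 444 induced. Its groups overlap through uninduced replicate 2 and induced replicates 2 and 3, and the log2 difference was -0.28 ± 0.16 (adjusted p = 0.399). The beta subunits Cacnb1 and Cacnb2 and the gamma subunit Cacng1, known from muscle, differed by -0.03, -0.02 and -0.09. Cacnb4 was not tested, with 8 signals between 2.4 and 33.7. A second tested probe set of Cacnb2 differed by 0.11.

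None of the pore subunits of calcium channels was called. Cacna1a, the pore of P/Q-type channels, read 694, 588, 394 and 506 uninduced and 440, 439, 705 and 662 induced, so that the groups share nearly the same range. Its log2 difference was 0.04 ± 0.21 (95% interval -0.41 to 0.49). Its 3 other probe sets differed by -0.31, -0.81 and -0.17, none called. Cacna1c, an L-type pore, read 226, 220, 154 and 250 uninduced and 217, 173, 268 and 267 induced, a difference of 0.12 ± 0.21 with overlapping groups. A second tested probe set of Cacna1c, under the background limit on every array, differed by -0.12 ± 0.66. Cacna1b, the pore of N-type channels, differed by 0.32 ± 0.34, and by 0.03 ± 0.17 on a second probe set that was above the limit on all 8 arrays. The T-type pore Cacna1g and the R-type pore Cacna1e differed by 0.08 and -0.14. Cacna1d, Cacna1h and Cacna1s, the last the L-type pore of skeletal muscle, were not tested; all 5 probe sets of Cacna1d stayed under the background limit on every array.

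**Figure D3:**
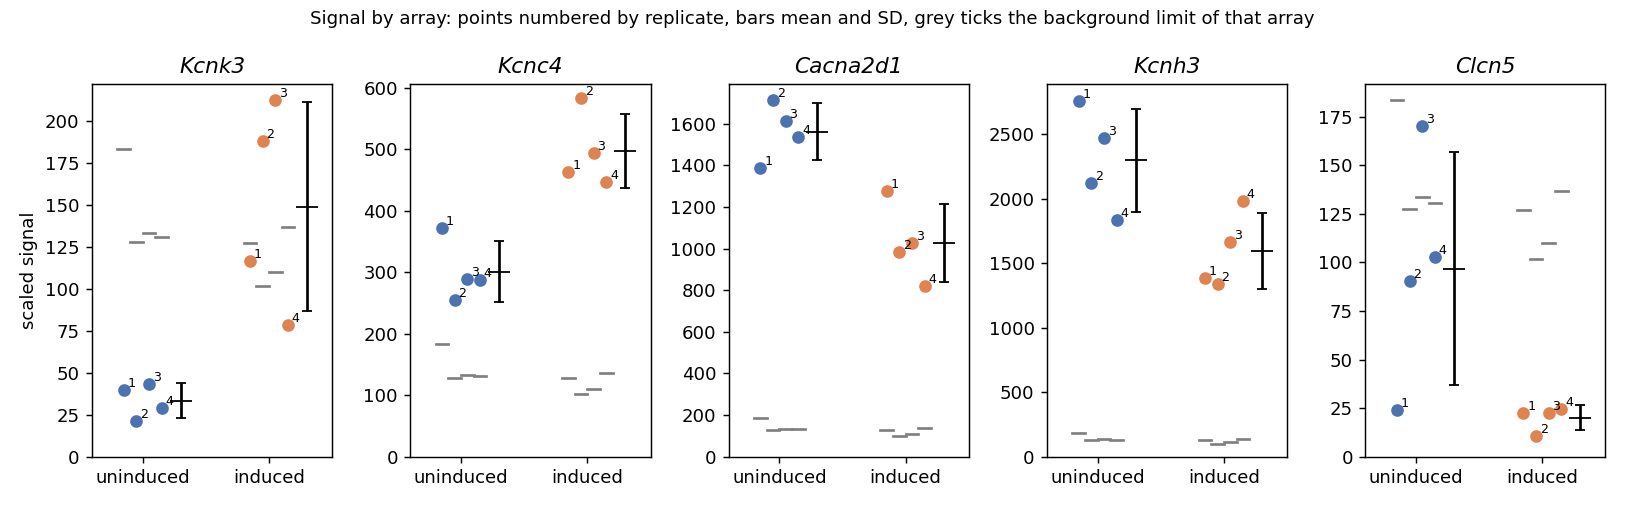
Scaled signal (vertical axis, from 0) of the 5 channel genes with the lowest p in uninduced and induced samples, 1 point per array numbered by replicate, with the mean and SD of each group and, as grey ticks, the background limit of each array. Kcnk3, Kcnc4 and Cacna2d1 have groups that do not overlap, while Kcnh3 overlaps through induced replicate 4 and Clcn5 through uninduced replicate 1. Of the 51 tested channel genes, 2 had groups without overlap that were higher after induction and 1 lower. Of all tested genes, 6.6% were higher in this way and 7.27% lower.

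Kcnk3 was one of the channel genes that rose. It encodes a two-pore background potassium channel that is inhibited by extracellular acid and helps to hold the resting potential. Its signals were 40.0, 21.0, 43.4 and 28.8 in uninduced replicates 1 to 4 and 116, 188, 213 and 78.3 in induced replicates 1 to 4. All 4 induced samples lay above all 4 uninduced ones, as in 6.6% of all tested genes. The uninduced signals were under the background limit on every array, and among the induced only replicates 2 and 3 were above it. The log2 difference was 1.89 ± 0.37 (SE; limma adjusted p = 0.0081; 95% interval 1.08 to 2.70) on the log2(signal + 7) scale, and no fold is given because the uninduced level is not above background. The size depends on the constant added, at 2.07 with 1 added and 1.41 with 32 added.

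Kcnk3 passed the low-signal filter through its induced group, since the uninduced mean of 33.3 ± 10.3 (SD, n = 4) lay under the filter. Tested without any filter, it was called with an adjusted p of 0.0164. A second Kcnk3 probe set read 25.0, 14.8, 12.4 and 19.0 uninduced and 21.5, 35.5, 33.5 and 38.6 induced. Here 3 of 4 induced arrays lay above all uninduced ones, with all 8 under the background limit; its difference was 0.67 ± 0.31 in the fit without a filter (adjusted p = 0.363). Kcnk3 was not among the genes called when the probe sets of a gene were averaged. It could not be called when the one with the lowest signal was taken, since that probe set lay under the filter. The first probe set differed by 2.80 between the arrays of replicate 2 and by 1.59 over the other 6 (adjusted p = 0.0977), and had an adjusted p of 0.0138 with the source label as a block. Of the other two-pore channels, Kcnk1 differed by 0.02 ± 0.31 and Kcnk5 was not tested.

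Kcnc4 was the other potassium channel that rose. It encodes a pore subunit of the Shaw family, which opens at depolarized potentials and inactivates quickly. Its signals were 372, 255, 290 and 288 in uninduced replicates 1 to 4 and 463, 583, 494 and 447 in induced replicates 1 to 4. The groups did not overlap and all 8 signals were above the background limit. The mean rose from 301 ± 49.8 to 497 ± 60.5 (SD, n = 4 each), a log2 difference of 0.72 ± 0.15 (SE; limma adjusted p = 0.0135; 95% interval 0.38 to 1.05). It was 1.17 between the arrays of replicate 2 and 0.56 over the other 6 (adjusted p = 0.147), with an adjusted p of 0.0236 with the source label as a block. The call was also lost without induced replicate 2 alone (adjusted p = 0.0507). Its relatives Kcnc1 and Kcnc2 were above the background limit on 0 arrays.

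No promoter entry was found for the called gene Kcnk3. The promoters of the called genes Kcnc4 and Cacna2d1 are shown because both, well above background, moved in opposite directions. Each is the stretch from 250 bases before to 50 bases after a RefSeq start site in GRCr8, both on the minus strand, printed 5′ to 3′ with GC boxes (GGGCGG on either strand, overlapping matches included) in capitals. Kcnc4 lies at chr2:197788384-197788683, and the most upstream of 3 listed starts of Cacna2d1 at chr4:20330098-20330397.
Kcnc4: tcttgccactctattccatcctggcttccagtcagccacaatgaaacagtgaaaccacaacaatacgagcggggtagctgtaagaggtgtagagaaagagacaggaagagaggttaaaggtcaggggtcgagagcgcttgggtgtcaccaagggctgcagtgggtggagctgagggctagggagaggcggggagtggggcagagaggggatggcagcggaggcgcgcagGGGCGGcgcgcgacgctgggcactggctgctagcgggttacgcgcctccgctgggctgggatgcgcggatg
Cacna2d1: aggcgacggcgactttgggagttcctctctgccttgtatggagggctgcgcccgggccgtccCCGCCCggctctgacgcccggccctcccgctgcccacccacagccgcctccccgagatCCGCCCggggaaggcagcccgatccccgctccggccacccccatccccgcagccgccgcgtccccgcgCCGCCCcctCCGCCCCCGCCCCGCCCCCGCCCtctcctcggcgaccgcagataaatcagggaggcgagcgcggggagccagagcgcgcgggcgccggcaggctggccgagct

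The Kcnc4 window holds 1 GC box and 62.3% G or C, and the Cacna2d1 window 7 GC boxes and 78.3% G or C. Neither holds the cAMP response element TGACGTCA, the AP-1 motif TGANTCA or the E-box CACGTG on either strand. Of 33469 rat promoters of this length, 33.1% hold a GC box, 1.83% the cAMP response element, 7.33% the AP-1 motif and 6.42% the E-box. Promoters were listed for 63 of the 83 channel genes (72 starts), and 34 of the 72 (47.2%) held a GC box. The cAMP response element was in 1.39% of the 72, the AP-1 motif in 5.56% and the E-box in 5.56%. A match describes these letters only.

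Among the 27 voltage-gated potassium channel genes, 16 were tested, of which Kcnc4 rose, 0 fell and 15 were not called. The median log2 difference of the 16 was -0.02. Kcnh3, of the ether-à-go-go-like group, read 2762, 2126, 2470 and 1838 uninduced and 1386, 1340, 1664 and 1980 induced. The groups overlap only through induced replicate 4, which lay above uninduced replicate 4. Its log2 difference of -0.53 ± 0.15 missed the threshold (limma adjusted p = 0.0596), and Kcnh3 was called in only 3 of 19 alternative fits. These left out replicate 4 of the induced or of the uninduced group (adjusted p = 0.0229 and 0.0292) or set the filter at the 50th percentile (0.0478). The adjusted p rose to 0.165 without uninduced replicate 1 and to 0.232 without both arrays of replicate 2. The mean of its probe sets was called (-0.69, adjusted p = 0.0299). A second Kcnh3 probe set differed by -0.86 ± 0.32 and was not called (adjusted p = 0.170).

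Kcnh2, the ERG channel of the heart's rapid delayed rectifier, read 966, 786, 770 and 907 uninduced and 574, 685, 840 and 1011 induced. The groups overlap widely, and the difference was -0.17 ± 0.17 (95% interval -0.53 to 0.20). Its second probe set, at 549, 562, 711 and 546 uninduced and 461, 394, 471 and 322 induced, had groups without overlap and a difference of -0.52 ± 0.15 that was not called (adjusted p = 0.0661). The 2 differences have the same sign and 95% intervals that overlap (-0.86 to -0.19 for the second), and whether they differ was not tested. Kcnh8, of the same group as Kcnh3, read 191, 140, 145 and 215 uninduced and 137, 162, 164 and 273 induced, a difference of 0.06 ± 0.24. Kcnq3, a subunit of the M-current, differed by -0.06 ± 0.26.

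Kcns3, a modifier that forms no channel alone, read 9.3, 62.6, 12.1 and 12.1 uninduced and 18.2, 46.6, 52.0 and 78.6 induced. All 8 signals were under the background limit, and 1 uninduced array lay within the induced range. The uninduced mean of 24.0 was under the filter, which it passed through the induced group. The difference of 1.01 ± 0.60 was not called (adjusted p = 0.423). The Shaker-type genes Kcna1 to Kcna6 were above the limit on 0 arrays, as was Kcnb2, and of the A-type genes Kcnd3 was above it on 1 array and Kcnd2 on 0. Of the auxiliary subunits of potassium channels, Kcnab2, a cytosolic beta subunit, read 255, 299, 253 and 328 uninduced and 229, 263, 285 and 250 induced. The overlapping groups differed by -0.14 ± 0.16 (95% interval -0.48 to 0.20), and Kcnab3 and Kcne1 by -0.49 and 0.15, neither called.

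Of 15 inward rectifier genes, 8 were tested and 0 were called, while 1 passed an unadjusted p under 0.05. That gene was Kcnj1, known from the kidney, at 288, 239, 258 and 330 uninduced and 140, 93.6, 200 and 283 induced. Induced replicates 1 to 3 lay below all uninduced ones and induced replicate 4 lay among them. The difference of -0.72 ± 0.29 was not called (limma adjusted p = 0.199), and a second tested probe set differed by -0.06. Kcnj1 was called in 1 of 19 alternative fits, without induced replicate 4 (adjusted p = 0.0411). The adjusted p rose to 0.397 without induced replicate 2 and to 0.440 without both arrays of replicate 2. Kcnj14 read 58.3, 51.5, 74.5 and 75.1 uninduced and 20.7, 38.7, 79.8 and 38.0 induced, all under the background limit, and its difference of -0.59 ± 0.40 was not called. Kcnj11, the pore of the ATP-sensitive channel, differed by 0.26 ± 0.21, and by -0.17 ± 0.27 on a second tested probe set under the background limit on every array.

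Of the calcium- or sodium-activated potassium channel genes, 3 of 5 were tested and 0 were called. Kcnn1, a small-conductance channel gated by calmodulin, read 240, 162, 225 and 269 uninduced and 272, 256, 263 and 356 induced. Induced replicates 1 and 4 were above all uninduced arrays, and the difference was 0.36 ± 0.19 (adjusted p = 0.375). Kcnmb1, a beta subunit of the large-conductance channel, read 188, 183, 191 and 168 uninduced and 220, 147, 267 and 421 induced. The uninduced arrays were close together and the induced ones spread on both sides of them, with a difference of 0.42 ± 0.27 (adjusted p = 0.463). Kcnma1, the pore of that channel, differed by -0.26 ± 0.23.

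No sodium channel gene was called. Of 10, 5 were tested, all of them pore subunits, and 0 were above the background limit on all 8 arrays. Scn8a, a pore of axon initial segments, read 128, 109, 107 and 148 uninduced and 65.0, 47.0, 165 and 99.1 induced. Induced replicates 1, 2 and 4 were below all uninduced ones and induced replicate 3 was above them, and the difference was -0.49 ± 0.34 (adjusted p = 0.516). Scn9a, the pore of peripheral neurons, differed by -0.56 ± 0.58, Scn3a by -0.19 ± 0.45 and Scn7a by 0.16 ± 0.27, all with overlapping groups. Scn4a, the muscle pore, differed by -0.11 ± 0.50, and by 0.16 ± 0.37 and -0.48 ± 0.52 on its other tested probe sets. Scn1a, Scn2a, Scn10a, Scn11a and the beta subunit Scn2b were not tested, and their signals stayed under the background limit on every array.

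Of 5 Clcn genes, 4 were tested and 0 were called. Clcn5, a chloride-proton exchanger of endosomes, was read mostly under the background limit. Its signals were 24.1, 90.3, 170 and 103 uninduced and 22.7, 10.5, 22.3 and 24.8 induced. Uninduced replicates 2 to 4 were above all induced ones while uninduced replicate 1 lay among them, and 7 of 8 signals were under the background limit. It passed the filter through its uninduced group, since the induced mean of 20.1 lay under 36.3. The difference was -1.99 with 1 added and -1.18 with 32 added. At -1.73 ± 0.53 with 7 added it was not called (limma adjusted p = 0.0796), and a second probe set differed by -0.57 ± 0.42 in the fit without a filter. Clcn5 was called in 1 of 18 alternative fits, without uninduced replicate 1 (adjusted p = 0.0114). The adjusted p rose to 0.260 without uninduced replicate 3 and to 0.342 without both arrays of replicate 2.

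The endosomal exchanger Clcn3 read 920, 654, 704 and 1000 uninduced and 891, 831, 599 and 973 induced. The groups share their range, and the difference was 0.0062 ± 0.18 (95% interval -0.38 to 0.39). Clcn7, the lysosomal exchanger, read 264, 180, 266 and 221 uninduced and 232, 220, 257 and 152 induced, a difference of -0.12 ± 0.21 with overlapping groups. Clcn4 differed by -0.0034 ± 0.37, and Clcn1, the chloride channel of skeletal muscle, was not tested.

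How small a change could be seen differed with the signal. For the 14 channel genes above the background limit on all 8 arrays the median SE of the log2 difference was 0.18, against 0.33 for the 21 above it on 1 to 7 arrays and 0.42 for the 16 tested genes above it on none. Among the 14, the 95% interval lay within a 2-fold change in either direction for 13. Kcnc4 was the exception, and its interval and those of Cacna2d1 and Kcnh3 did not include 0. Among the 16 genes above the limit on no array, 12 had 95% intervals reaching past a log2 difference of 1 in at least 1 direction. A difference of that size is not excluded for these 12 genes. The 32 untested genes had mean signals between 1.28 and 33.3, and in the limma fit without a filter 0 of them were called, also 0 at an unadjusted p under 0.05.

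**Figure D4:**
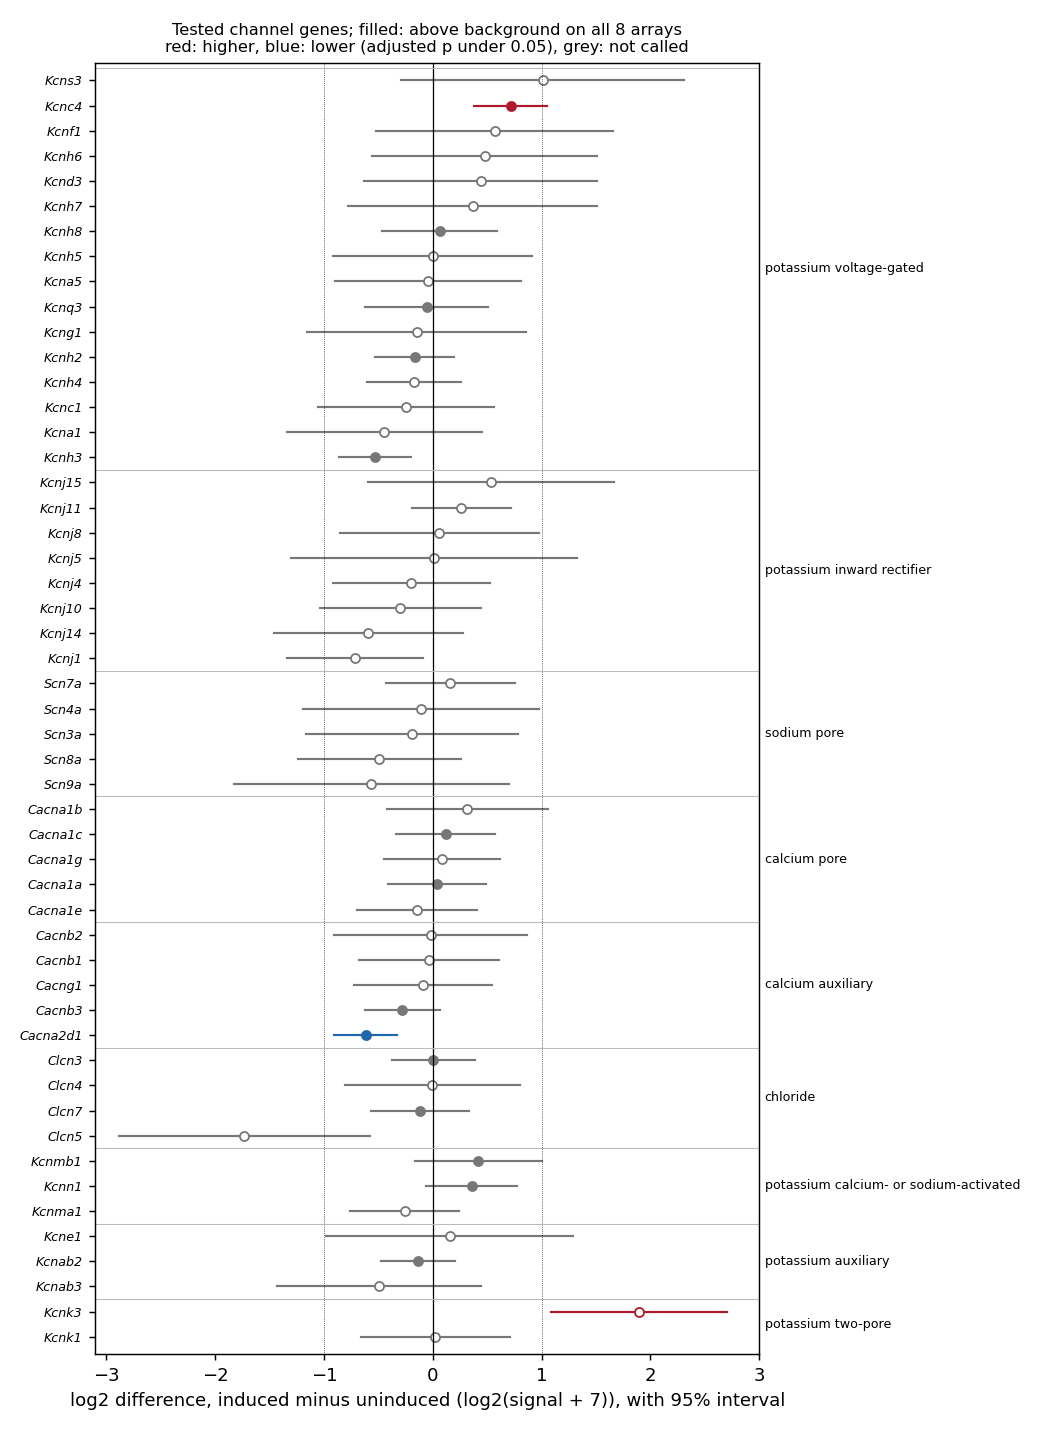
Log2 difference, induced minus uninduced (horizontal axis, on the log2(signal + 7) scale), with its 95% interval for each of the 51 tested channel genes, grouped by role (labels at right). Filled points are above the background limit on all 8 arrays, red marks the genes called higher (Kcnc4 and Kcnk3) and blue the gene called lower (Cacna2d1). Dotted lines mark a log2 difference of 1 in either direction on this scale.

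The probe sets of one gene did not always give the same sign. Of the 34 channel genes with more than 1 probe set, 12 had more than 1 that was tested, and the differences had the same sign in 6 and opposite signs in 6. In the 6 with opposite signs, the 95% interval of every tested probe set spanned both directions. Opposite signs therefore do not show that these probe sets differ. None of the 3 called genes had a second tested probe set.

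Genes that act on membrane excitability outside these families were read from a list of 87 symbols, of which 52 were on the array and 40 tested. Of these, 3 rose, 0 fell and 37 were not called, a share of 7.5% against 7.21% of all genes. Rrad, a small GTPase that inhibits voltage-gated calcium channels through their beta subunits, read 73.8, 43.6, 40.5 and 21.0 uninduced and 136, 152, 121 and 159 induced. Every induced signal was above its array's background limit and every uninduced one below, with a difference of 1.62 ± 0.34 (limma adjusted p = 0.0116) whose size depends on the constant added (1.77 with 1 and 1.22 with 32). Fxyd2, the gamma subunit of the sodium pump, read 63.4, 6.8, 12.6 and 15.1 uninduced and 115, 119, 109 and 107 induced. The groups did not overlap, 7 of 8 signals were under the limit, and the difference was 2.23 ± 0.48 (adjusted p = 0.0137), or 2.64 with 1 added and 1.45 with 32 added. Fxyd2 passed the filter through its induced group, with an uninduced mean of 24.5, and no fold is given for it or for Rrad because their uninduced signals were under the limit.

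Camk2d, a calmodulin-dependent kinase that phosphorylates calcium channels, rose from 1138 ± 120 to 1629 ± 144 (SD, n = 4 each), a difference of 0.52 ± 0.11 (adjusted p = 0.0116). These 3 genes were not called without replicate 2 of both groups (adjusted p = 0.0924 for Rrad, 0.107 for Fxyd2 and 0.0572 for Camk2d), nor Camk2d with median centring (0.0677). Among others, the sodium pump subunits Atp1b1, Atp1b2 and Atp1b3, the calcium pumps Atp2a2 and Atp2a3 and the exchanger Slc8a1 were above the background limit on all 8 arrays and were not called, with differences from -0.32 for Atp1b2 to 0.68 for Atp2a3. Atp2a3 (0.68 ± 0.19, limma adjusted p = 0.0588) narrowly missed the threshold. So did Slc12a4 (0.43 ± 0.12, adjusted p = 0.0547), which was above the limit on all 8 arrays and had groups without overlap.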

How the data were processed

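RNA of 8 samples was measured on 8 Affymetrix arrays. The authors deposited linear intensities, with 1 value for every probe set. Trimmed by 2% at either end, the array means lay between 500.8 and 500.9, so scaling to a common target preceded deposit. Its software is not given in the sources used here. Symbols came from the annotation of the array, and all 83 gene identifiers were found in RefSeq (GRCr8) with the same symbol. Signals were taken as log2(signal + 7), where 7 is the 10th percentile, rounded. Controls (59 probe sets) and 2622 others under the 30th percentile of the mean (36.3) were left out, and 6118 entered limma (version 3.58.1, R 4.3.3; lmFit, eBayes with trend, Benjamini-Hochberg). In that fit 251 probe sets were higher and 182 lower (58.0% higher, and 72.6% of 230 with median centring). Errors of log2 differences are SEs and those of signals SDs; the number of arrays limits the precision. In a simulation of this comparison (6118 probe sets, 200 of them changed) limma found 59% of log2 changes of size 1 and 86% of size 2, with 13 false calls among 158. These rates are over all tested probe sets and need not hold for the channel genes, which had weaker signals. Of the tested channel genes 27.45% were above the background limit on all 8 arrays, against 59.12% of all tested genes.

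Values by array were given for called members, the 12 tested members with the lowest p and, per role, up to 4 of those above background on all 8 arrays; called genes of the related list were named, and other genes were chosen after their values were seen. Members and lists were chosen with earlier results of these data known.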

Additional observations from a re-analysis of the deposited data

Results flagged for a closer look

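In 3 of 38 groups of 4 samples (the 19 genes given by array, on the log2 scale) 1 array lay far from the others by Dixon's test, where chance gives about 1 in 20. Each was a replicate 2. For Cacnb3, uninduced replicate 2 was low at 547, with a gap to the next of 0.916 of the group's range. For Kcns3, uninduced replicate 2 was high at 62.6 (0.891), and for Clcn5, induced replicate 2 was low at 10.5 (0.863); both are below the background limit.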

How the results depend on the processing

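The limits are the 4 arrays a group and low signal: 69 of the 83 genes were not above background on every array. Of the 19 genes given by array, 8 kept their direction and their side of the threshold in every alternative in which they were tested. With both arrays of replicate 2 left out, limma called 0 channel genes higher and 0 lower (3 and 3 at an unadjusted p under 0.05), 0 of the related genes (7 at an unadjusted p under 0.05), and 141 probe sets higher and 80 lower of all. With median centring 2 channel genes were higher and 0 lower (3 and 4 unadjusted), and 167 probe sets higher and 63 lower of all. Without an intensity trend 0 channel genes were lower (4 unadjusted) and 101 probe sets of all. A filter at the 50th percentile, which leaves out Kcnk3, gave 1 higher and 2 lower, and averaging the probe sets of each gene also 1 and 2. The probe set with the lowest signal, which for Kcnk3 lay under the filter, gave 1 and 1. Above the highest background control on all 8 arrays were 9 genes. Clcn3 turned to -0.0075 with quantile normalization and to -0.11 without both arrays of replicate 2. Leaving out 1 array at a time gave 1 to 2 channel genes higher (1 without induced replicate 2), 0 to 3 lower (0 without uninduced replicate 2, 2 without uninduced replicate 1 or 4, 3 without induced replicate 4), 113 to 164 probe sets lower of all (120 without uninduced replicate 2, 113 without uninduced replicate 3) and 3 to 5 related genes (5 without uninduced replicate 1), and ranges across 0 for Clcn3 (-0.094 to 0.15), Kcnh8 (-0.14 to 0.18), Cacna1a (-0.11 to 0.16), Cacna1c (-0.023 to 0.25) and Clcn7 (-0.23 to 0.039). The causes were not tested. With the replicate number as a block the channel genes called were again 2 higher and 1 lower, and 219 probe sets were higher and 150 lower of all. The replicate numbers were not taken to pair the samples, since the correlations of the deviations of same-numbered arrays were -0.14, 0.057, -0.087 and 0.19 for replicates 1 to 4.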
